A study of Homo sapiens with 60 samples.

Results

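The messenger RNAs of 10 genes of cellular zinc handling were followed in HepG2 cells, a line from a human liver cancer that still makes many hepatocyte products. They are the zinc importers SLC39A4, SLC39A10, SLC39A14, SLC39A8 and SLC39A6, the exporters SLC30A1, SLC30A5, SLC30A7 and SLC30A9, and the transcription factor MTF1. The members were found by matching these symbols to the Ensembl identifiers of the count table, which gave 10 of 60675 rows, and all 10 passed the filter on low counts. All cells were harvested after 24 h. The 25 groups were dimethyl sulfoxide (DMSO) vehicle and 8 herbal extracts at a low, a medium and a high dose, in 60 libraries.

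Hot-water extracts of the decoctions Yijin-tang (yijin) and Soshiho-tang (soshiho) and ethanol extracts of Liriopis seu Ophiopogonis Tuber (liriope), Schisandrae Fructus (schisandra), Longan Arillus (longan) and Zizyphi Semen (zizyphus) were given at 20, 100 and 500 µg/mL. Ethanol extracts of Polygalae Radix (polygala) were given at 10, 50 and 250 µg/mL and of Aucklandiae Radix (aucklandia) at 11.2, 56 and 280 µg/mL. Soshiho had 2 libraries per dose, polygala and aucklandia 1, and vehicle and the other extracts 3. The sample labels state 0.1% DMSO for vehicle and the series text 2%, and wortmannin, named there as a positive control, is not analysed here. The labels do not say whether replicates came from separate cultures, so p-values measure only how far these samples spread, and that spread may be technical.

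Zinc transporters fall into 2 families with opposite directions. SLC39A (ZIP) proteins bring zinc into the cytosol from outside the cell or from vesicles, and SLC30A (ZnT) proteins move it out of the cytosol, across the plasma membrane or into organelles. MTF1 senses free zinc and, when zinc is high, binds metal response elements and activates the metallothioneins, which bind zinc in the cytosol, and the plasma membrane exporter SLC30A1. It has also been linked to lower transcription of the importer SLC39A10 in high zinc.

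Between 20.7 and 38 M expected counts were summed per library. Values are CPM, counts scaled to a common normalized library size, so each level is relative to the other RNA of its library. In bulk RNA a lower level per cell and fewer cells carrying the RNA cannot be told apart. All 8 listed hepatocyte genes were above 1 CPM in at least 1 library. The fibroblast genes COL1A2, COL3A1, DCN and LUM were under 1 CPM in every library. So were the endothelial genes CDH5 and KDR and the leukocyte genes PTPRC and CD3E. The rest of these lists, COL1A1, PDGFRB, PECAM1, VWF, CD14 and CD68, passed 1 CPM in at least 1 library. In vehicle the fibroblast, endothelial and leukocyte lists summed to 13.7, 5.33 and 50.9 CPM. Schisandra low replicate 1 and liriope high replicate 2 stood apart from their own groups, with SDs of log2 differences of 0.255 and 0.229 against at most 0.168 elsewhere, and calls that rest on them are given with and without them.

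Because SLC30A1 and SLC39A10 carried the main contrast, the start regions of these genes and of MT2A, a metallothionein, are shown first. They were searched for the core of the metal response element, spelled TGCACNC or TGCGCNC, on both strands and with overlaps allowed. The sequences are from RefSeq on GRCh38.p14, and capitals mark a match. Over 35116 windows of 300 bases, 29.6% held at least 1 match and 8.60% at least 2. In the 250 bases before the start, 24.8% held at least 1 match, 6.48% at least 2 and 0.0313% at least 7. The stretches are SLC30A1 at chr1:211579162-211579411 on the minus strand, SLC39A10 at chr2:195656708-195656957 on the plus strand, before the first of its 2 listed starts, and MT2A at chr16:56608334-56608583 on the plus strand.
SLC30A1: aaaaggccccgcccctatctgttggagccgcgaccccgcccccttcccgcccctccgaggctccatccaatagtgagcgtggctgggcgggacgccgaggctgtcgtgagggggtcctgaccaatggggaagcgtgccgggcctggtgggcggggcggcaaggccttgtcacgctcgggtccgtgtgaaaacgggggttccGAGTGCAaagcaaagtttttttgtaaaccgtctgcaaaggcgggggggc
SLC39A10: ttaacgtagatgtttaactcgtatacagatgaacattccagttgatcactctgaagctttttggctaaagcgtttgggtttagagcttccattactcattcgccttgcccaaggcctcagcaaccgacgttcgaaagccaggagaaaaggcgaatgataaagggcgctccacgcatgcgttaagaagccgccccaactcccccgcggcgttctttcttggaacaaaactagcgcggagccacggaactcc
MT2A: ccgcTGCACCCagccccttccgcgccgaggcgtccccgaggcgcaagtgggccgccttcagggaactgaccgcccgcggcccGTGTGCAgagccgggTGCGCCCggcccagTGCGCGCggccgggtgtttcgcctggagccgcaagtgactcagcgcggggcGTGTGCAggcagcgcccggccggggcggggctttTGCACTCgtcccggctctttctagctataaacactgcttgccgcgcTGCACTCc

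MT2A held 7 matches in these 250 bases, SLC30A1 held 1, and the SLC39A10 stretch held 0, which says only that these letters are not in this window. A further SLC30A1 match began 25 bases after the start, and SLC39A10 had 1 match that began 34 bases after its second listed start, at chr2:195657249-195657275. These short sites are shown because they lie outside the stretches above.
SLC30A1 after the start: agaccgggccGAGTGCAgctgccgtgg
SLC39A10 after the second start: ggagaggagaTGCACACggcactcgag

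Of the 10 members, 8 had a start window, and 4 of the 8 held a match. Some had more than 1 window, and by window 4 of 11 held a match, against 29.6% of all windows. SLC39A4 and SLC39A14 had no window and were not searched. SLC39A6 and 1 of 3 starts of SLC39A8 had 1 match each, and MTF1, SLC30A5, SLC30A7 and SLC30A9 had 0. A match is a run of letters and does not show that MTF1 binds there.

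In vehicle, levels per kilobase of exon differed widely between the members. SLC39A14, which carries zinc, iron and manganese into hepatocytes, was far above the others at 117.7 ± 5.19 CPM per kb (SD, n = 3). SLC39A4, SLC30A1 and SLC39A6 followed at 18.5 ± 0.907, 17 ± 0.790 and 15.2 ± 1.39 CPM per kb. SLC39A4 and SLC30A1 did not differ beyond their spread, nor did SLC30A1 and SLC39A6.

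The intracellular transporters came next, with SLC30A9 at 8.59 ± 0.981, SLC30A5 at 6.83 ± 0.0745 and SLC30A7 at 5.07 ± 0.291 CPM per kb. MTF1 was at 2.72 ± 0.219 and SLC39A10 at 1.74 ± 0.118 CPM per kb. SLC39A8, an importer of zinc, manganese and cadmium, was lowest at 0.0797 ± 0.0249 CPM per kb and was read by only 8 to 29 counts in any of the 60 libraries. SLC39A10, which changed most with treatment, was thus among the least abundant members.

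At the high dose, yijin, soshiho and schisandra each had more SLC39A10 and SLC39A4 and less SLC30A1 than at the low dose, while liriope, longan and zizyphus showed no call for any member. SLC39A10 was 1.6- to 1.9-fold as high on the fitted scale, SLC39A4 rose in the same 3 extracts, and SLC30A1 fell in the same 3. High was compared with low dose first, because the labels give the doses of an extract 1 set of sample codes and vehicle another. An adjusted p under 0.05 from edgeR's quasi-likelihood test is called a change.

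SLC39A10, a plasma membrane zinc importer (ENSG00000196950, chr2:195575977-195737702, plus strand, GENCODE 29), was at 12.8, 11.2 and 12.2 CPM in the vehicle libraries. In yijin it was at 13.2, 13.0 and 13.3 CPM at the low dose, 14.9, 17.3 and 16.4 CPM at the medium dose and 24.9, 27.6 and 24.3 CPM at the high dose. In soshiho it was at 14.0 and 15.0 CPM, then 16.6 and 14.7 CPM, then 23.1 and 22.5 CPM. The high-dose libraries of both decoctions lay above every low-dose, medium-dose and vehicle library.

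In schisandra, SLC39A10 was at 14.7, 12.2 and 13.8 CPM at the low dose, 15.5, 14.7 and 16.3 CPM at the medium dose and 24.8, 26.8 and 27.5 CPM at the high dose. Again the high-dose libraries stood clear of all others, and the step from medium to high was larger than that from low to medium. High against low, the log2 change was 0.96 ± 0.08 in yijin (SE, adjusted p = 1.4e-11), 0.65 ± 0.10 in soshiho (adjusted p = 1.2e-05) and 0.95 ± 0.08 in schisandra (adjusted p = 6.4e-12). Against vehicle, the high dose was up by 1.09 ± 0.08, 0.92 ± 0.09 and 1.13 ± 0.08.

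SLC39A10 was already above vehicle at the medium dose of these 3 extracts, by 0.43 ± 0.09 in yijin (adjusted p = 4.5e-04), 0.38 ± 0.10 in soshiho (adjusted p = 0.00707) and 0.37 ± 0.09 in schisandra (adjusted p = 0.00192). Among all genes 16.7%, 10.2% and 20.1% were called in these comparisons. The soshiho call was lost without soshiho medium replicate 2 (0.29, adjusted p = 0.201). Medium against low, none of the 3 changes was called.

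In liriope, SLC39A10 was called higher than vehicle at the low dose by 0.26 ± 0.09 and at the high dose by 0.30 ± 0.09 (adjusted p = 0.0321 and 0.0144), although both groups overlapped vehicle. In longan and zizyphus it was not called at any dose, with 0.21 ± 0.09 and 0.15 ± 0.09 at the high dose (adjusted p = 0.0818 and 0.272), although those high-dose libraries lay above all 3 vehicle libraries. The low-dose call in liriope was lost without liriope low replicate 3 or vehicle replicate 2 or 3 (adjusted p = 0.328, 0.164 and 0.0644). The high-dose call in liriope was lost without liriope high replicate 1 or 3 or vehicle replicate 2 (adjusted p = 0.0709, 0.105 and 0.104), and with only the groups compared (adjusted p = 0.152). Without the liriope high replicate 2 that stood apart it was 0.39 (adjusted p = 0.00167).

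SLC39A4 (ENSG00000147804), the importer of dietary zinc whose loss causes acrodermatitis enteropathica, was at 88.0, 96.8 and 94.6 CPM in vehicle. In yijin it was at 93.1, 94.5 and 94.3 CPM at the low dose, 98.8, 91.3 and 105.6 CPM at the medium dose and 124.9, 133.6 and 139.2 CPM at the high dose. In soshiho it was at 100.2 and 99.4 CPM, then 101.6 and 99.8 CPM, then 130.1 and 126.5 CPM. The high-dose libraries of both decoctions lay above every low-dose, medium-dose and vehicle library.

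In schisandra, SLC39A4 was at 73.7, 96.4 and 90.3 CPM at the low dose, 108.9, 112.2 and 111.2 CPM at the medium dose and 149.5, 152.7 and 161.9 CPM at the high dose. The 3 dose groups did not overlap, and 73.7 CPM, in the library that stood apart, was the lowest of the 54 replicated libraries. High against low, SLC39A4 rose by 0.50 ± 0.06 in yijin (adjusted p = 1.8e-08), 0.36 ± 0.07 in soshiho (adjusted p = 3.7e-04) and 0.84 ± 0.06 in schisandra (adjusted p = 1.0e-14). Without schisandra low replicate 1 and liriope high replicate 2 the schisandra change was 0.73 (adjusted p = 2.6e-14).

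Schisandra was the extract in which SLC39A4 also rose from low to medium dose, by 0.36 ± 0.06 (adjusted p = 0.00131), the only medium against low call of any member in any replicated extract, where 0.0709% of all genes were called. Without schisandra low replicate 1, the library at 73.7 CPM, it was 0.25 ± 0.05 and was not called (adjusted p = 0.117). Against vehicle, SLC39A4 was up by 0.51, 0.46 and 0.73 at the high dose of yijin, soshiho and schisandra and by 0.25 at the medium dose of schisandra. An antisense gene, AC233992.3, overlaps its exons, with a mean of 15.6 counts per library. The kit kept strand, but the strand setting of the counting is not given in the sources used here.

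SLC39A6, an importer that pairs with SLC39A10 in 1 complex, was called high against low in soshiho alone. It was at 61.8, 54.6 and 51.9 CPM in vehicle, and in soshiho at 55.2 and 55.6 CPM at the low dose, 56.4 and 55.2 CPM at the medium dose and 66.1 and 67.1 CPM at the high dose. The 2 high-dose libraries were above all the others, with a change of 0.27 ± 0.07 against the low dose (adjusted p = 0.0122) and 0.25 ± 0.06 against vehicle (adjusted p = 0.00322). The high against low call was lost when any 1 of the 4 libraries was left out (adjusted p from 0.0739 to 0.111). In yijin the high-dose libraries of SLC39A6 also lay above the low-dose ones, with means of 57.9 and 52.2 CPM. That change was 0.14 to 0.16 in fits that left out 1 library and was not called. The response in yijin minus that in soshiho was -0.12 ± 0.09 (adjusted p = 0.809).

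SLC30A1 (ENSG00000170385, chr1:211571568-211578742, minus strand), the exporter of the plasma membrane, went the other way. It was at 96.7, 88.4 and 94.5 CPM in vehicle. In yijin it was at 107.2, 99.0 and 97.8 CPM at the low dose, 102.4, 103.0 and 91.9 CPM at the medium dose and 83.8, 77.7 and 75.7 CPM at the high dose. In soshiho it was at 100.0 and 102.3 CPM, then 96.8 and 94.8 CPM, then 85.0 and 82.0 CPM, so the high-dose libraries of both decoctions lay below every vehicle library.

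In schisandra, SLC30A1 was at 124.0, 100.2 and 104.9 CPM at the low dose, 96.7, 89.0 and 92.7 CPM at the medium dose and 64.6, 61.4 and 66.6 CPM at the high dose. The 3 dose groups did not overlap, and the 2 ends of the range over the 54 replicated libraries were both in this extract. High against low, SLC30A1 fell by 0.36 ± 0.06 in yijin (adjusted p = 3.5e-05), by 0.28 ± 0.07 in soshiho (adjusted p = 0.0146) and by 0.77 ± 0.06 in schisandra (adjusted p = 6.1e-13). The soshiho call was lost when any 1 of its 4 libraries was left out (adjusted p from 0.0690 to 0.193), and the schisandra value was -0.67 without schisandra low replicate 1 and liriope high replicate 2 (adjusted p = 1.5e-11).

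Against vehicle, SLC30A1 fell by 0.54 ± 0.06 at the high dose of schisandra (adjusted p = 8.9e-09) and by 0.24 ± 0.06 at the high dose of yijin (adjusted p = 0.00292). The yijin call was lost when libraries were scaled by their size alone (-0.13, adjusted p = 0.121). In soshiho the difference from vehicle was -0.16 ± 0.07 and was not called (adjusted p = 0.0919). SLC30A1 was above vehicle at the low doses of schisandra and liriope, by 0.24 ± 0.06 and 0.19 ± 0.06 (adjusted p = 0.00299 and 0.0193), where 21.5% and 16.6% of all genes were called. Without schisandra low replicate 1, at 124.0 CPM, the schisandra value was 0.14 and was not called (adjusted p = 0.108). The liriope call was lost without liriope low replicate 3 or vehicle replicate 2 (adjusted p = 0.0912 and 0.130).

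**Figure D1:**
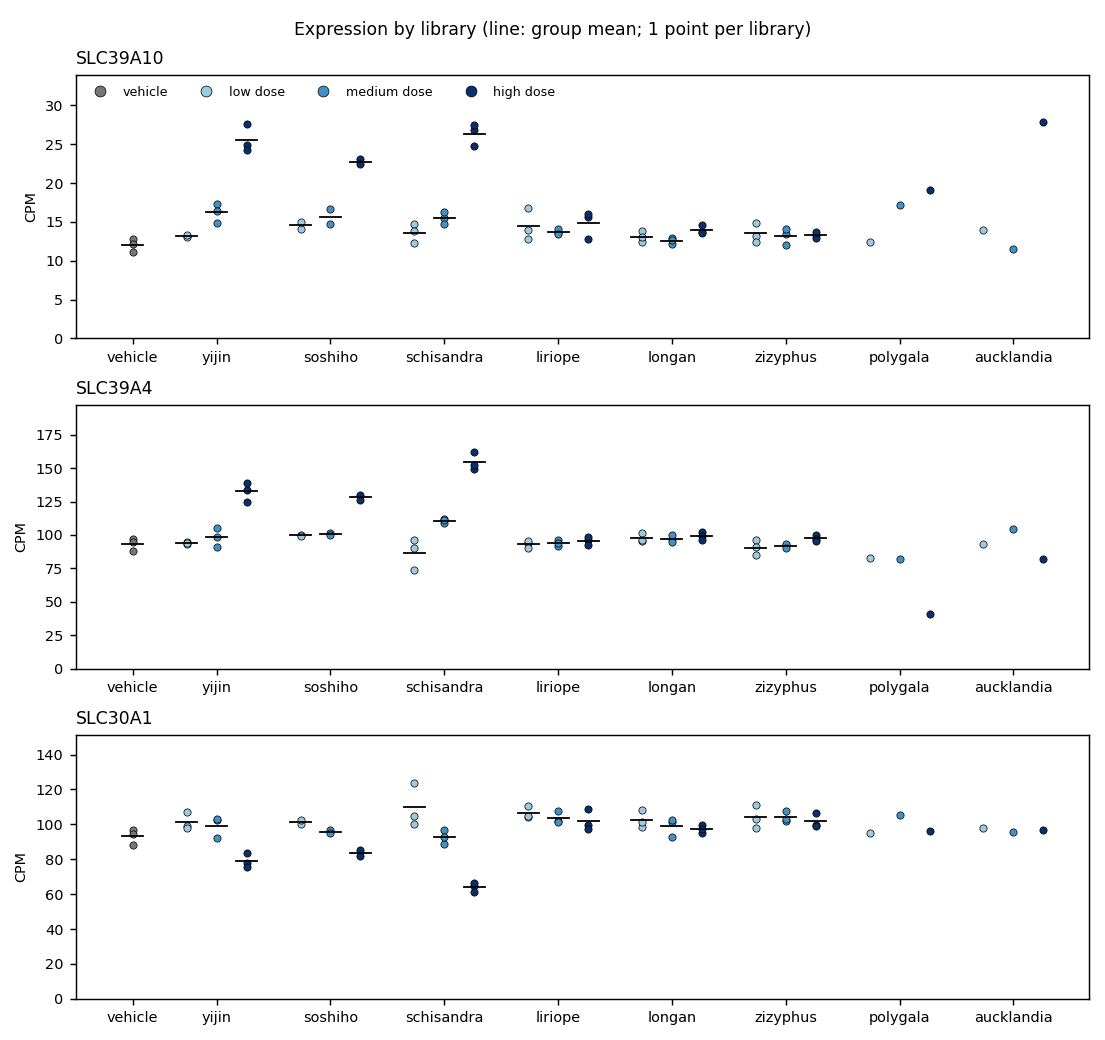
CPM of SLC39A10, SLC39A4 and SLC30A1 in each of the 60 libraries by extract and dose, with a line at the mean of groups with more than 1 library. At the high dose of yijin, soshiho and schisandra, SLC39A10 lies between 22.5 and 27.6 CPM and SLC30A1 between 61.4 and 85.0 CPM, apart from the vehicle libraries.

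Counted over all members, high against low gave 2 higher and 1 lower in yijin, 3 higher and 1 lower in soshiho and 2 higher and 1 lower in schisandra. Of all 16925 genes tested, 7.79%, 5.08% and 7.33% were called in these comparisons. In liriope, longan and zizyphus 0 of 10 members were called by edgeR and by DESeq2, and 0 had an unadjusted p under 0.05, while 0.0295%, 0.0177% and 0.0355% of all genes were called. The called importers rose and the called exporter fell in each of the 3 extracts.

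The families did not move as a whole. Over the 5 importers the median log2 change, high against low, was 0.45 in yijin, 0.27 in soshiho and 0.01 in schisandra, and over the 4 exporters 0.04, -0.02 and -0.10. The median over all genes was between -0.01 and 0.00 in the 3 extracts. The yijin importer median is SLC39A8, which has few counts and was not called (0.45 ± 0.32). In liriope, longan and zizyphus both medians lay between -0.04 and 0.03.

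**Figure D2:**
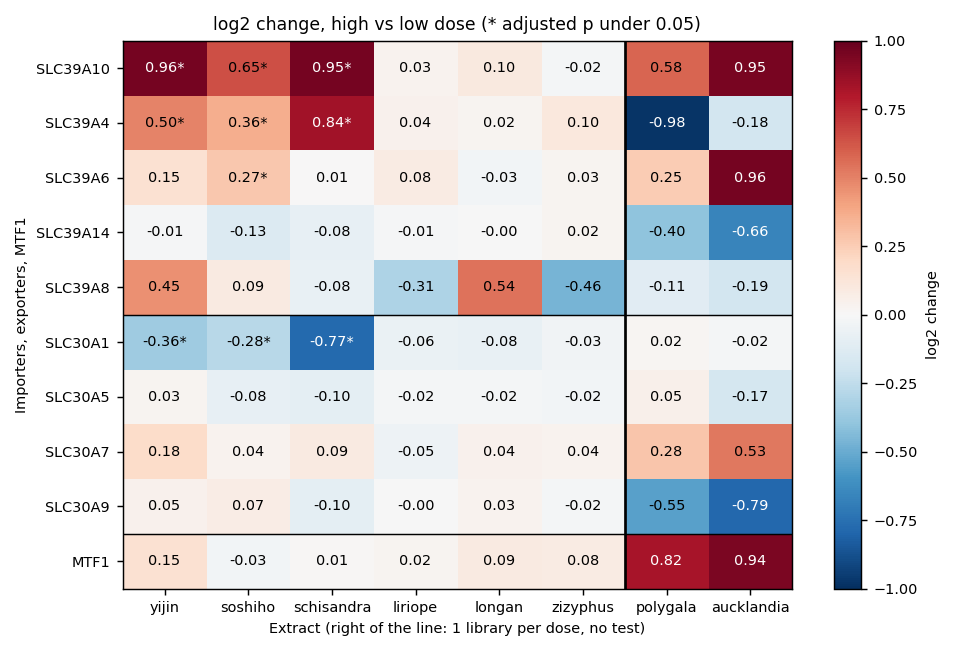
log2 change from the low to the high dose for the 10 members (rows) in the 8 extracts (columns), with an asterisk where the adjusted p was under 0.05. SLC39A10, SLC39A4 and SLC30A1 carry asterisks in yijin, soshiho and schisandra, and the 2 columns at the right, from 1 library per dose, were not tested.

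The ratio of SLC39A10 to SLC30A1 within a library does not depend on scaling. Its log2 was -2.96 ± 0.03 in vehicle (SD, n = 3) and between -3.13 and -2.72 in the 20 libraries of vehicle and the low doses of the replicated extracts. At the high dose it was -1.63 ± 0.13 in yijin (n = 3), -1.88 ± 0.01 in soshiho (n = 2) and -1.28 ± 0.09 in schisandra (n = 3). The 8 libraries of those groups, from -1.88 to -1.19, did not overlap the 20.

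In CPM, SLC30A1 was 7.75 times SLC39A10 in vehicle and 3.09, 3.67 and 2.43 times at the high doses of yijin, soshiho and schisandra. At the medium doses of these extracts the log2 ratio was -2.61 ± 0.15, -2.62 ± 0.10 and -2.58 ± 0.07, between the low and high doses. The 9 high-dose libraries of liriope, longan and zizyphus, from -3.0 to -2.68, overlapped that range. SLC39A4 and SLC30A1 had equal CPM in vehicle, with a log2 ratio of 0.00 ± 0.13, and differed by 0.75 ± 0.15, 0.62 ± 0.01 and 1.27 ± 0.05 at the same 3 high doses.

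**Figure D3:**
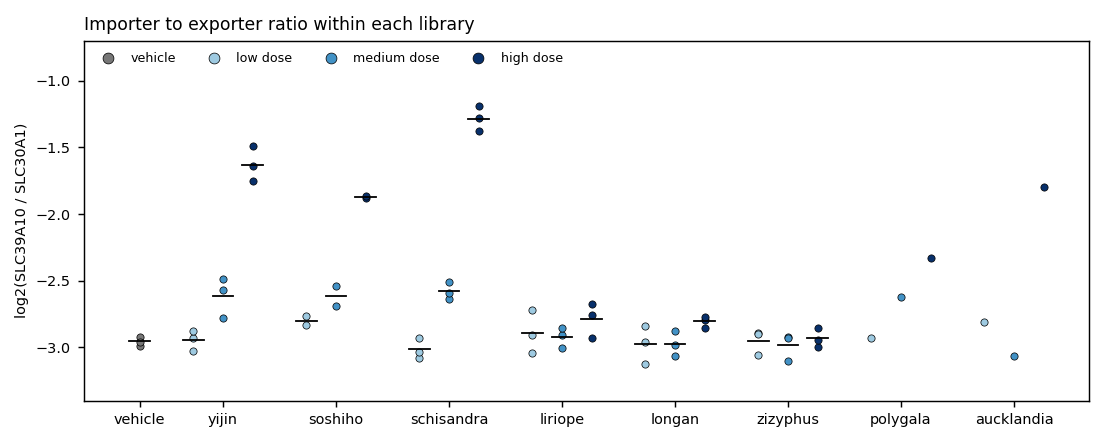
log2 ratio of SLC39A10 to SLC30A1 CPM in each of the 60 libraries by extract and dose, with a line at the mean of groups with more than 1 library. The high doses of yijin, soshiho and schisandra lie between -1.88 and -1.19, above the vehicle and low-dose libraries at -3.13 to -2.72.

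Extracts of 1 code set were compared directly at 500 µg/mL. Schisandra differed from liriope in 3 members: relative to schisandra, liriope had a log2 difference of 0.67 ± 0.06 in SLC30A1 (adjusted p = 4.0e-11), a log2 difference of -0.84 ± 0.08 in SLC39A10 (adjusted p = 2.2e-10), and a log2 difference of -0.69 ± 0.06 in SLC39A4 (adjusted p = 2.9e-12). Of all genes 7.21% were called there. Without liriope high replicate 2 the 3 differences were 0.70, -0.73 and -0.67, all called (adjusted p = 2.8e-10, 2.9e-08 and 2.4e-10). Yijin against soshiho gave 0 of 10 members by edgeR, with 3.53% of all genes called and 3 members at an unadjusted p under 0.05, namely SLC30A5, SLC39A14 and SLC39A6. Longan against zizyphus gave 0 of 10 by edgeR, with 0.0532% of all genes called and 0 members at an unadjusted p under 0.05.

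The dose responses themselves, high minus low, were also compared. Schisandra exceeded liriope in SLC39A10 by 0.92 ± 0.12 (adjusted p = 5.4e-07) and in SLC39A4 by 0.80 ± 0.08 (adjusted p = 3.9e-09), and its SLC30A1 response was lower, at -0.71 ± 0.08 (adjusted p = 1.2e-07), where 4.11% of all genes were called. These 3 kept their calls in each of 12 fits that left out 1 library. Against yijin, the SLC39A10 responses differed by -0.01 ± 0.12 (adjusted p = 0.991), while schisandra had a lower SLC30A1 response, at -0.42 ± 0.08 (adjusted p = 0.00742), and a higher SLC39A4 response, at 0.34 ± 0.08 (adjusted p = 0.0247), among 0.957% of all genes called.

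Those 2 differences from yijin rest in part on schisandra low replicate 1. Without it the SLC30A1 difference was -0.32 (adjusted p = 0.0677) and the SLC39A4 difference 0.23 (adjusted p = 0.165). The SLC39A4 call was also lost without schisandra high replicate 3, yijin high replicate 1 or 2 or yijin low replicate 2 or 3 (adjusted p from 0.0562 to 0.0894) and with library size alone (adjusted p = 0.0768). Yijin and soshiho differed in the response of 0 members by edgeR and by DESeq2, with 0.880% of all genes called and SLC39A10 at an unadjusted p under 0.05 (0.31 ± 0.13). Longan and zizyphus differed in 0 by both tools, with 0.00591% of all genes called and SLC39A8 at an unadjusted p under 0.05.

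SLC30A5 and SLC39A14 were higher than vehicle at many doses and were not called between high and low dose. SLC30A5, which with partners loads zinc into the secretory pathway, was at 40.0, 39.4 and 39.1 CPM in vehicle, and all 51 replicated treated libraries, from 41.9 to 52.4 CPM, were above these 3. It was called higher than vehicle in 15 of 18 comparisons of an extract dose with vehicle, by 0.15 to 0.27, and in 0 of 6 comparisons of high with low dose. Calls against vehicle ran from 10.2% to 23.4% of all genes over these 18 comparisons. All 18 use the same 3 vehicle libraries, so they are not independent of each other.

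SLC39A14 was at 793.6, 799.5 and 858.8 CPM in vehicle and at 794.7 to 1001 CPM in the treated replicated libraries, of which 41 of 51 were above all 3. It was called higher in 10 of 18 comparisons, by 0.14 to 0.22, and in 0 of 6 of high with low dose. The labels give vehicle a sample code of its own, so treatment and code set cannot be told apart in these differences. The same holds for every comparison with vehicle given here, for all members and for the other genes. SLC39A10 was above all 3 vehicle libraries in 43 of the 51, and SLC30A1 was above them in 36, among them every low-dose library of the 6 extracts, and below them in 8. With library size alone in place of TMM normalization, the median of all genes at the high doses moved to 0.10 to 0.13 above vehicle, from 0.00 to 0.01. SLC30A5 was then 0.19 to 0.34 and SLC39A14 0.09 to 0.33 above vehicle, values that include the shift.

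Many of these small calls depended on single libraries. At the high doses, the SLC30A5 call was lost in longan without longan high replicate 1 or vehicle replicate 2 or 3 (adjusted p from 0.0515 to 0.0640) and in schisandra without schisandra high replicate 2 or 3 or vehicle replicate 2 or 3 (0.0577 to 0.0699). The SLC39A14 call was lost in yijin without yijin high replicate 1 or 2 or vehicle replicate 1 or 2 (0.0519 to 0.104), and in liriope without liriope high replicate 1 or 3 or vehicle replicate 1 or 2 (0.0682 to 0.142). In longan it was lost without any 1 library but vehicle replicate 3 (0.0736 to 0.207). At the low dose of schisandra both genes kept their calls without schisandra low replicate 1, at 0.19 and 0.20 (adjusted p = 0.0122 and 0.0138), and SLC39A14 lost its call without schisandra low replicate 3 (0.0578). SLC30A5 at the high doses of yijin and liriope and SLC39A14 at that of zizyphus kept their calls in all 6 fits each. With only the groups compared, the SLC30A5 call in liriope and the SLC39A14 call in zizyphus were lost (adjusted p = 0.135 and 0.0506). An antisense gene, AC010273.1, overlaps exons of SLC30A5, with a mean of 0.783 counts per library.

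**Figure D4:**
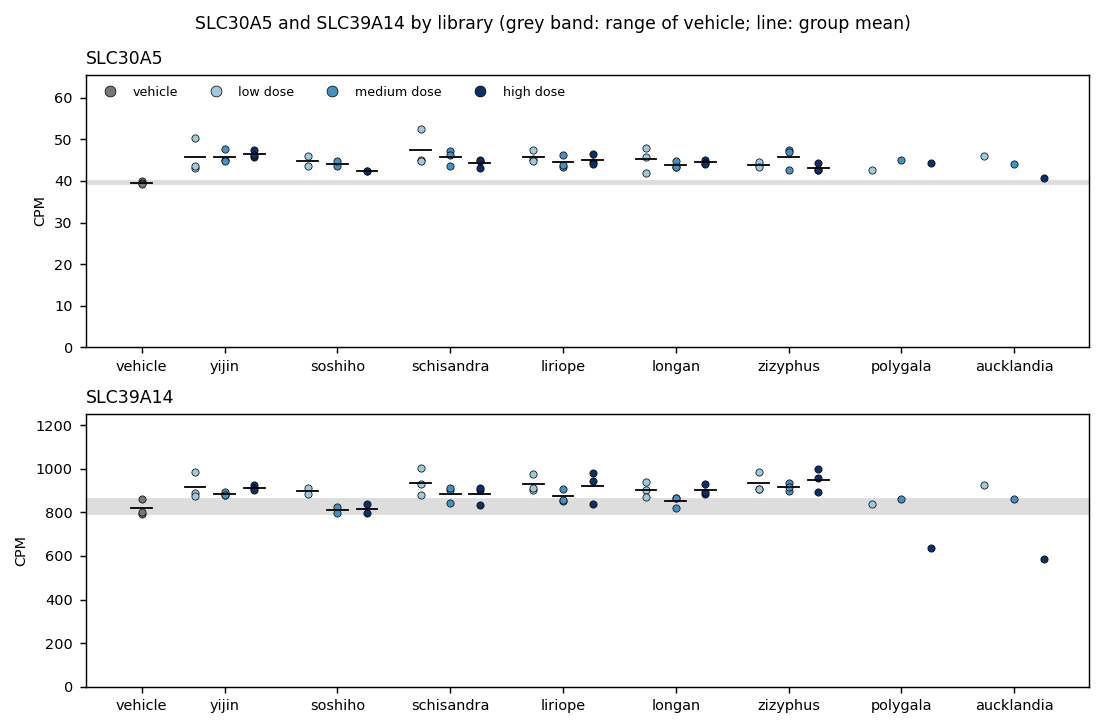
CPM of SLC30A5 and SLC39A14 in each of the 60 libraries by extract and dose, with a line at group means and a grey band over the range of the 3 vehicle libraries. All SLC30A5 values of treated replicated libraries, 41.9 to 52.4 CPM, lie above the band, and the high doses of polygala and aucklandia have the lowest SLC39A14, at 634.5 and 585.3 CPM.

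Against vehicle, the high doses gave 5 members higher and 1 lower in yijin, 3 higher in soshiho, 3 higher and 1 lower in schisandra, 3 higher in liriope, 2 higher in longan and 1 higher in zizyphus. Of all genes, 23.4%, 21.8%, 22.1%, 16.8%, 19.6% and 16.9% were called in these 6 comparisons. SLC30A7, another transporter that loads zinc into the secretory pathway, was among the 6 in yijin. It was at 48.8, 51.1 and 50.1 CPM against 44.9, 40.1 and 42.5 CPM in vehicle, up by 0.24 ± 0.06 (adjusted p = 0.00506). Its 3 high-dose libraries were above all vehicle libraries, and the high against low change of 0.18 ± 0.06 was not called (adjusted p = 0.0683).

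MTF1 (ENSG00000188786, chr1:37809567-37859620, minus strand) was not called in any comparison of the 6 replicated extracts. It was at 23.0, 19.8 and 22.8 CPM in vehicle and at 19 to 27.4 CPM in the 51 treated replicated libraries, with a median of 21.8 CPM. The high against low changes lay between -0.03 and 0.15, the largest in yijin (0.15 ± 0.08, adjusted p = 0.304). In schisandra, where SLC30A1 had its largest high against low change of the 6 extracts, MTF1 was at 19.7, 21.3 and 20.8 CPM at the high dose and 20.5, 20.3 and 20.7 CPM at the low dose. SLC30A9, linked to mitochondrial zinc export, and SLC39A8 were likewise not called in any of these comparisons.

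Metallothioneins, the best known targets of MTF1, fell in the same 3 extracts. Of 9 listed genes 7 were tested. High against low, 7 were lower in yijin, 4 in soshiho and 7 in schisandra, with medians of -1.58, -0.82 and -2.59. DESeq2 gave 6, 4 and 6 lower, and 7.79%, 5.08% and 7.33% of all genes were called by edgeR. In liriope, longan and zizyphus 0 were called by edgeR and 0 by DESeq2, with 1, 0 and 1 at an unadjusted p under 0.05. High against vehicle, 6, 6 and 7 were lower in yijin, soshiho and schisandra, with medians of -1.73, -0.96 and -2.20. There 23.4%, 21.8% and 22.1% of all genes were called. MT1X was at 34.6 ± 1.72 CPM in vehicle (SD, n = 3), 11.4 ± 0.182 CPM at the high dose of yijin, 16.6 ± 0.642 CPM in soshiho (n = 2) and 7.49 ± 0.669 CPM in schisandra. These genes are close copies of each other, and reads could have been split between them.

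MT1G was at 55.0 to 59.7 CPM in vehicle and at 8.54 to 8.89 CPM at the high dose of schisandra, a range far below. At the low dose of schisandra MT1G was at 50.1, 51.1 and 133.9 CPM and MT2A at 166.9, 184.1 and 396.5 CPM, so 1 library was more than 2 times the others in both genes. Against vehicle, which does not use the low-dose libraries, MT1G fell by 2.71 ± 0.25 (adjusted p = 5.0e-11) and MT2A by 1.73 ± 0.20 (adjusted p = 2.2e-08) in schisandra. In yijin MT2A went from 209.1 ± 14.5 CPM in vehicle to 71.7 ± 2.56 CPM at the high dose.

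Other transporters of these families were also counted in the 6 replicated extracts. High against low, 7.79% of all genes were called in yijin and 7.33% in schisandra. Of 7 tested among 9 other ZIP genes, 1 was called high against low, SLC39A11 in schisandra, lower by -0.27 ± 0.07 (adjusted p = 0.00553) and not called against vehicle. Of 3 tested among 6 other ZnT genes, 1 was called, SLC30A10, a manganese exporter, in yijin, at -0.38 ± 0.06 (adjusted p = 1.7e-05), from 18.4 ± 1.06 to 14.1 ± 1.04 CPM. Of 9 copper, iron and manganese transport genes 1 was called, TFRC, the transferrin receptor, in yijin, at 0.22 ± 0.06 (adjusted p = 0.00545). Against vehicle, 1 of the 7 ZIP genes was called higher at the high dose of yijin and 3 at the low dose of schisandra. In these comparisons 0 of the 7 were called lower, and 23.4% and 21.5% of all genes were called.

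Polygala and aucklandia, with 1 library per dose, allow no test. Differences are on the log2(CPM + 1) scale, with 95% intervals that cover counting error only, and a difference past 1.5-fold is counted. Between high and low dose 2 members passed in polygala (1 higher, 1 lower) and 5 in aucklandia (3 higher, 2 lower), where 30.6% and 36.6% of all genes passed. Against vehicle 4 passed in each, among 32.0% and 36.2% of all genes. The values differed from those of yijin, soshiho and schisandra in SLC30A1, which stayed level, in SLC39A4, which was not higher at the high dose, and in MTF1, which was higher, and these differences between extracts were not tested.

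MTF1 was at 22.4, 25.4 and 40.3 CPM at the low, medium and high dose of polygala, a difference of 0.82 between high and low (0.67 to 0.98). In aucklandia it was at 24.9, 21.7 and 48.6 CPM, a difference of 0.94 (0.80 to 1.08). Both high-dose libraries were above every one of the 54 replicated libraries, whose highest value was 27.4 CPM. SLC30A1 was at 94.8, 105.5 and 96.0 CPM in polygala and 98.1, 95.7 and 96.9 CPM in aucklandia, within or near the vehicle range at the high dose. With library size alone it was 0.37 and 0.26 above vehicle at these doses.

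SLC39A10 was at 12.4, 17.1 and 19.1 CPM in polygala and at 14.0, 11.5 and 27.8 CPM in aucklandia. The high against low difference was 0.58 (0.37 to 0.80) and 0.95 (0.76 to 1.13). That of polygala was just inside 1.5-fold with 1 CPM added, while its plain CPM ratio was 1.54. Whether SLC39A10 counts among the polygala members past 1.5-fold thus depends on the added CPM. The log2 ratio of SLC39A10 to SLC30A1 was -2.33 at the high dose of polygala and -1.80 at that of aucklandia, above all vehicle and low-dose libraries of the replicated extracts. SLC39A4 was at 82.5, 82.3 and 41.2 CPM in polygala, a difference of -0.98 (-1.10 to -0.87), and at 92.9, 104.8 and 81.7 CPM in aucklandia, so in polygala the 2 importers moved in opposite directions.

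SLC39A6 was at 57.5, 57.9 and 112.7 CPM in aucklandia, a difference of 0.96 (0.87 to 1.05), and at 52.8, 57.9 and 63.1 CPM in polygala. SLC30A9 was at 57.9, 58.5 and 33.2 CPM in aucklandia, a difference of -0.79 (-0.91 to -0.66), and at 55.5, 56.1 and 37.7 CPM in polygala. SLC39A14 was at 924.7, 862.8 and 585.3 CPM in aucklandia, a difference of -0.66 (-0.69 to -0.63), and at 838.5, 862.7 and 634.5 CPM in polygala. The high-dose values of SLC30A9 and SLC39A14 were below those of all replicated libraries.

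Other RNA moved with these values. The summed level of the 8 hepatocyte genes was 17718 CPM at the high dose of polygala and 20769 CPM at that of aucklandia, against 48713 CPM in vehicle and 42221, 38944 and 46196 CPM at the high doses of yijin, soshiho and schisandra. The summed fibroblast, endothelial and leukocyte genes were highest of all libraries at the high dose of aucklandia, at 21.7, 6.64 and 70.8 CPM against 13.7, 5.33 and 50.9 CPM in vehicle. At the high dose of polygala they were lower than in vehicle, at 7.07, 1.56 and 14.6 CPM, the last 2 the lowest of all libraries. Their part in the member values was not tested. Between high and low dose, metallothioneins were lower past 1.5-fold in 5 of 7 in each extract. Of all genes 30.6% passed in polygala and 36.6% in aucklandia. MT2A, at 163.4 CPM at the low and 165.0 CPM at the high dose of aucklandia, was not lower there.

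Among the other transporters, past 1.5-fold between high and low dose, 2 of 7 ZIP genes were lower in polygala and 2 of 7 in aucklandia. Of 3 ZnT genes 0 passed in polygala, and 1 was higher and 1 lower in aucklandia. Of all genes 30.6% passed in polygala and 36.6% in aucklandia, so the ZIP counts were near those shares. The manganese exporter SLC30A10 was at 17.4 CPM at the low and 1.00 CPM at the high dose of aucklandia, a difference of -3.20 that exceeded that of every member. SLC30A3 was at 1.17 and 7.55 CPM there, a difference of 1.98. SLC39A5 was at 46.9 and 16.7 CPM in aucklandia, a difference of -1.43, and at 41.8 and 19.1 CPM in polygala, a difference of -1.09.

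**Figure D5:**
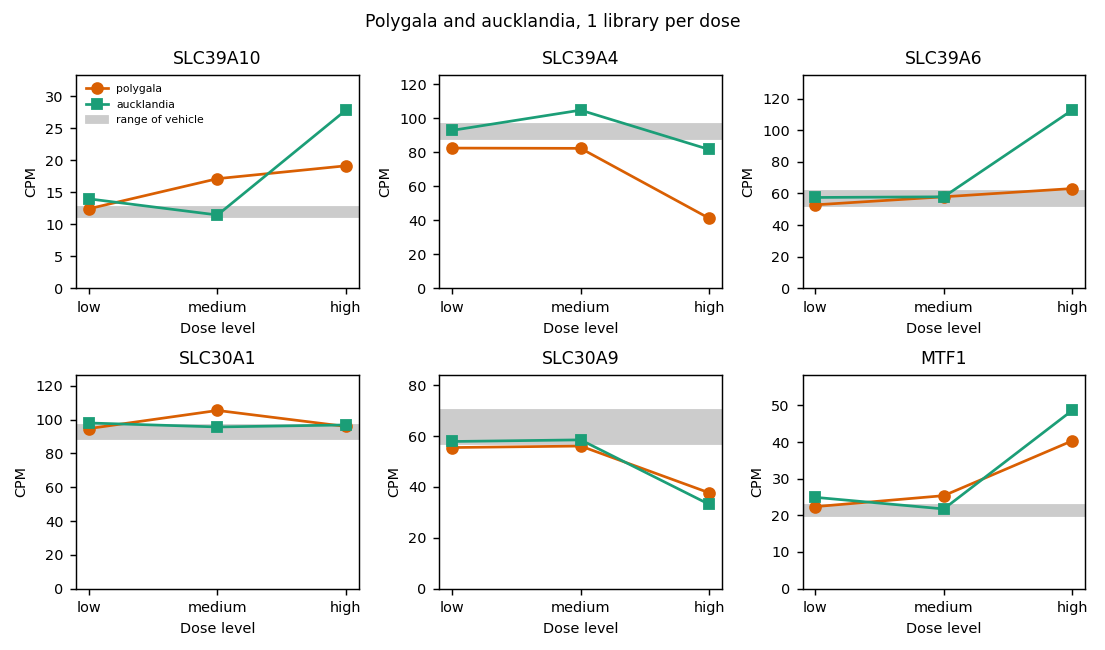
CPM of SLC39A10, SLC39A4, SLC39A6, SLC30A1, SLC30A9 and MTF1 at the low, medium and high dose of polygala (circles) and aucklandia (squares), 1 library per point, with a grey band over the range of the 3 vehicle libraries. MTF1 reaches 40.3 and 48.6 CPM at the high doses while SLC30A1 stays at 96.0 and 96.9 CPM.

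Over the 25 group means of log2(CPM + 1), the 5 genes of 9385 whose pattern was most like SLC39A10 were TMCC1 (Pearson r of 0.882), BPNT2 (0.831), TM4SF1 (0.800), NCBP2 (0.799) and TMTC3 (0.799). MT1G was last of the 9385, with r of -0.946. For SLC30A1 they were AJUBA (0.821), EML6 (0.751), MT1E (0.712), MT2A (0.708) and MT1F (0.703). The groups share a vehicle and code sets, and 6 of them are single libraries, so these are descriptions with no p.

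Over the 19 replicated groups, a version chosen after its values were seen, the genes most like SLC30A1 were MT1X (0.948), MT1G (0.946), MT1F (0.942), MT1E (0.938) and HP (0.927). Among the members in those groups, SLC39A10 and SLC39A4 had r of 0.936, SLC30A1 and SLC39A4 -0.959, SLC30A1 and SLC39A10 -0.870, and MTF1 and SLC39A10 -0.175. The SLC39A10 and SLC30A1 values over these groups are set mainly by 3 high-dose groups.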

How the data were processed

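RNA was sequenced from HepG2 cells in 60 libraries. Per the labels' protocols, a directional kit was used. Per the submitters' processing notes, the tools were FastQC 0.11.9, Trim Galore 0.6.5, STAR 2.7.3a and RSEM 1.3.3 on hg38. The annotation release and the strand setting are not given in the sources used here. The authors deposited expected counts per Ensembl gene, not normalized, of which 10.4% had a fraction, and they were rounded to whole counts. Symbols were matched for 56558 of 60675 identifiers, and positions come from GENCODE 29.

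The 19 groups with at least 2 libraries (54 libraries) were fitted together with edgeR 4.0.16 in R 4.3.3 (quasi-likelihood test, TMM normalization, filterByExpr, 16925 genes), with Benjamini-Hochberg adjustment within each comparison and calls under 0.05. CPM use the normalized library sizes. For polygala and aucklandia, 1 CPM was added before log2. Library totals of 20.7 to 38 M limit mainly SLC39A8. Among 51 replicate pairs 0 were identical. On simulated data for yijin high against low (16925 genes), the fit found 62% of genes changed 1.25-fold, 94% at 1.5-fold, 98% at 2-fold and 100% at 4-fold, and 3.28% of its calls were false. Motifs were searched in RefSeq start windows.

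All 10 members are named. Of the other listed metal genes, those called with 1 sign both high against low and high against vehicle could be named, at most the 4 with the largest change per list and extract, and so could the 5 genes most like SLC39A10 and SLC30A1 by Pearson r over 25 group means. MT2A, SLC39A11, SLC39A5, SLC30A3, SLC30A10 in aucklandia, MT1X in yijin and schisandra, and MT1G as the gene least like SLC39A10 fall outside this rule and were chosen after their values were seen. The members and lists were chosen with earlier results of these data known. Alternatives were DESeq2 1.42.0, RLE factors, library size alone, no filter, only the groups compared, a replicate block, other pseudocounts and leaving out each library of the high-dose comparisons (37 fits). Leaving out each library of 7 further comparisons was added after seeing the data (8 more fits).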

Additional observations from a re-analysis of the deposited data

Results flagged for a closer look

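The following differences between dose responses (high minus low, log2) passed the test of the difference itself. Schisandra minus liriope was -0.7105 for SLC30A1 (adjusted p = 1.2e-07), 0.9221 for SLC39A10 (adjusted p = 5.4e-07) and 0.7976 for SLC39A4 (adjusted p = 3.9e-09). Schisandra minus yijin was -0.4160 for SLC30A1 (adjusted p = 0.00742) and 0.3425 for SLC39A4 (adjusted p = 0.0247). P-values are from edgeR over all 16925 genes. The differences from yijin were lost in some fits that left out 1 library, as given with those values in the results.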

How the results depend on the processing

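Of 557 called member values recomputed under alternatives, 0 had the opposite sign and 62 lost the call. Of 2083 uncalled values 32 gained a call, and 169 changed sign while uncalled. The SLC39A10 and SLC39A4 rises, high against low, kept their calls in yijin, soshiho and schisandra in every fit that left out 1 library, and so did the SLC30A1 fall in yijin and schisandra. Counts of members called changed by more than 1.5 times as follows. With only the groups compared, yijin high against low went from 3 to 5, liriope high against vehicle from 3 to 0 and zizyphus high against vehicle from 1 to 0. With library size alone, longan and zizyphus high against vehicle went from 2 to 6 and from 1 to 7, and schisandra minus yijin from 2 to 1. Longan high against vehicle gave 1 with RLE factors and 0 with no filter. Without schisandra low replicate 1 and liriope high replicate 2, an alternative chosen after seeing the data, yijin high against low gave 5, zizyphus high against vehicle 2 and schisandra minus yijin 0. Leaving out 1 library gave 0 to 2 for schisandra minus yijin, 1 to 3 for liriope and 0 to 1 for longan high against vehicle, and 2 to 2 for soshiho high against low. In the comparisons added after seeing the data it gave 1 to 4 for liriope low against vehicle, 0 to 2 for schisandra medium against low and 0 to 1 for soshiho medium against vehicle. Same-numbered replicates had correlations from -0.600 to 0.636 and the others from -0.602 to 0.645. In longan the same-numbered values were 0.330, 0.053 and 0.240, and in zizyphus 0.197, -0.600 and -0.209. Whether the numbers pair the samples is thus not settled. With the replicate block, schisandra high against low kept 3 members called, and no count of members called changed. The causes of these shifts were not tested.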
